A study of Homo sapiens with 24 samples.

Results

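The genes described here carry pyruvate into the tricarboxylic acid (TCA) cycle and turn the cycle itself. The list holds 33 gene symbols and was put together by what the genes do: 2 mitochondrial pyruvate carriers, 5 subunits of the pyruvate dehydrogenase complex, 6 kinases and phosphatases of that complex, 15 enzymes of the cycle and its close relatives, and 5 enzymes at its side entries and exits. All 33 were found in each of the 4 expression tables, out of 67902 symbols listed in any of them. RNA sequencing covered 24 libraries in 8 groups of 3, from 3 human triple-negative breast cancer (TNBC) cell lines, and asked how breast cancer stem cells (BCSCs) differ from other cells of a line and what the mitotic kinesin KIF20A does in them. Hs578T and HCC70 cells were sorted into a BCSC fraction, which was CD24-CD44+ and ALDH+, and a non-BCSC fraction that lacked both features. MDA-MB-231 cells carried either a lentiviral control sgRNA (sgCtrl) or KIF20A sgRNA number 1 (sg1), and, in a separate experiment, either an empty vector (EV) or a KIF20A overexpression vector (OE). The authors' methods describe infection with lentivirus and selection with puromycin in general terms, without naming the sequenced groups. If all 4 MDA-MB-231 groups were made that way, the controls shared both. Hs578T and MDA-MB-231 cells grew in DMEM and HCC70 cells in RPMI. Each line is a single established line. The authors' methods name biological triplicates, but nothing in the labels says that the 3 libraries of a group came from separate cultures. The p-values thus measure the spread between these libraries only. Each pair of groups was labelled as its own batch, so differences between lines or experiments cannot be told apart from batch.

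Pyruvate made by glycolysis crosses the inner mitochondrial membrane through a carrier built from MPC1 and MPC2. The pyruvate dehydrogenase complex then converts it to acetyl-CoA, with the E1 subunits PDHA1 and PDHB, the E2 subunit DLAT, the E3 subunit DLD and the binding protein PDHX. The kinases PDK1 to PDK4 phosphorylate E1 and switch the complex off, and the phosphatases PDP1 and PDP2 switch it back on. Citrate synthase (CS) joins acetyl-CoA to oxaloacetate, and isocitrate dehydrogenase, the oxoglutarate dehydrogenase complex, succinyl-CoA ligase, fumarase (FH) and malate dehydrogenase return the carbon to oxaloacetate. Carbon also enters through pyruvate carboxylase (PC) and glutamate dehydrogenase (GLUD1), and leaves through the malic enzymes (ME1, ME2) and ATP citrate lyase (ACLY).

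Sequencing depth, recovered from the deposited values as whole reads, was 28387214 to 33952629 reads per Hs578T library. HCC70 libraries held 24982265 to 33983775, those of the sgRNA experiment 41424338 to 51018667 and those of the vector experiment 15971297 to 22182293. KIF20A, the targeted gene, was at 153, 173 and 156 in the sgCtrl libraries and at 122, 145 and 91.1 in the sg1 libraries, in CPM-like values (reads over 1 scaling factor per library). All sg1 libraries lay below all sgCtrl libraries, and the log2 fold change was -0.45 ± 0.16 (SE, limma adjusted p = 0.690). In CPM, KIF20A was at 101, 143 and 124 in EV and at 1348, 269 and 896 in the libraries labelled OE. The libraries labelled OE carried the markers of the line at far lower levels: the mesenchymal genes VIM, CD44, AXL and CAV1 summed to 4518 to 5262 CPM in EV and to 362 to 803 CPM in the libraries labelled OE. CD44 averaged 642 CPM in EV and 0.557 CPM there, and VIM averaged 2653 CPM and 556 CPM. These libraries went against their line label, all values from them are given as those of libraries labelled OE, and no OE library was left to repeat the comparison without them. In Hs578T, ALDH1A3, an aldehyde dehydrogenase gene, rose in BCSCs (log2 fold change 1.29, limma adjusted p = 8.39e-06), while CD24 averaged 86.2 TPM in the non-BCSC fraction and 83.1 TPM in the BCSC fraction. For HCC70, CD24 averaged 857 TPM and 692 TPM in these fractions (limma adjusted p = 0.0543). ALDH1A3 averaged 87.3 TPM and 98.4 TPM there (limma adjusted p = 0.179), CD44 averaged 103 TPM and 107 TPM, and 0 of the 4 sort genes tested passed in HCC70 (3 had an unadjusted p under 0.05).

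The 4 kinases are described in every group, so the 250 bases before the canonical start of each are shown for reference, 5′ to 3′ on the strand of the gene, from RefSeq (GRCh38.p14). Capitals mark ACGTG or GCGTG on either strand, the core letters to which hypoxia-inducible factors are known to bind, and PDK1 is a textbook target of these factors. The windows are chr2:172555840-172556089 (plus strand) for PDK1, chr17:50095101-50095350 (plus) for PDK2, chrX:24465036-24465285 (plus) for PDK3 and chr7:95596517-95596766 (minus) for PDK4.
PDK1: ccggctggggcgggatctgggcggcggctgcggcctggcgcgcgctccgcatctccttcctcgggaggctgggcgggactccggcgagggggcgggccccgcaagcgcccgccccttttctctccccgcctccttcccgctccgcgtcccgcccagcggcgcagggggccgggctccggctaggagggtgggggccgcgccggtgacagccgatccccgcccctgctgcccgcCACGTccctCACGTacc
PDK2: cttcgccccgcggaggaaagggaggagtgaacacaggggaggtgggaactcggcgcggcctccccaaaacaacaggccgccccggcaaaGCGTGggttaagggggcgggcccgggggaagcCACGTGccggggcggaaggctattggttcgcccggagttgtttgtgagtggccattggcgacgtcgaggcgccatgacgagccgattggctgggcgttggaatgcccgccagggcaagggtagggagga
PDK3: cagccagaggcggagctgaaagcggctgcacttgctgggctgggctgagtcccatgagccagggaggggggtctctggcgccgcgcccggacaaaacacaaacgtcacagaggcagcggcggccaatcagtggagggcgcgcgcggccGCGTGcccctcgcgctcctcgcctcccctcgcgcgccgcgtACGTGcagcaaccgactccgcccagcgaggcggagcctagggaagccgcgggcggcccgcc
PDK4: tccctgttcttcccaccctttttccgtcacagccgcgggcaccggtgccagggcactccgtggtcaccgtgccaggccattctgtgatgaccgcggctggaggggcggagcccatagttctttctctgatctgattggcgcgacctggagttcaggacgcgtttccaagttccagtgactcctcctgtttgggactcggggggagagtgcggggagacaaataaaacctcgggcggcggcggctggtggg
ACGTG occurred 2 times in the PDK1 window, 2 times in PDK2, where both matches share the letters CACGTG, 1 time in PDK3 and 0 times in PDK4. GCGTG occurred 1 time each in PDK2 and PDK3 and 0 times in PDK1 and PDK4. Among 35116 RefSeq promoter windows of this length, 18.5% held ACGTG and 32.2% held GCGTG. Of the 31 members with a promoter entry, 9 held ACGTG (29%) and 19 held GCGTG (61.3%). These are matches of letters, and base composition was not equalised between members and other promoters.

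In Hs578T, 1 of the 33 members changed with the sort, and it was a kinase. PDK1 was at 37.6, 36.7 and 34.1 TPM in the non-BCSC libraries and at 21.5, 22.0 and 23.4 TPM in the BCSC libraries. The groups did not overlap, and the highest BCSC library lay well below the lowest non-BCSC library. The fold change was -0.67 ± 0.055 (log2, SE) with a limma adjusted p of 0.00101, so that the BCSC mean was 0.617 times the non-BCSC mean. The call was kept in all 13 alternatives run, with log2 fold changes between -0.71 and -0.64. Members called made up 3.03% of those tested, against 7.15% of the 13324 genes tested in all. The median log2 fold change was -0.0027 over the members and -0.01 over all genes tested.

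The other kinases and the phosphatases did not pass the test in Hs578T. PDK3 was at 36.2, 36.0 and 33.6 TPM in non-BCSCs and at 33.2, 31.6 and 32.8 TPM in BCSCs, a log2 difference of -0.11 ± 0.049 (SE, limma adjusted p = 0.223). PDK2 averaged 15.8 ± 0.933 TPM (SD, n = 3 libraries) in non-BCSCs and 15.9 ± 1.63 TPM in BCSCs. PDK4 was near the floor of the test, at 0.974 to 1.26 TPM in non-BCSCs and 1.07 to 1.35 TPM in BCSCs, with at most 70 reads in a library. The phosphatase PDP2 had the largest positive value among the members, at 6.16, 5.50 and 5.78 TPM in non-BCSCs and 7.28, 6.29 and 6.47 TPM in BCSCs (log2 0.17 ± 0.074, SE, limma adjusted p = 0.223). All 3 BCSC libraries lay above all 3 non-BCSC libraries, but the difference passed neither before adjustment (limma unadjusted p = 0.0505) nor after it.

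Outside the kinases, differences in Hs578T were small. The 15 cycle enzymes lay between -0.10 for ACO1, the cytosolic aconitase, and 0.12 for IDH3A, the catalytic subunit of the NAD-dependent isocitrate dehydrogenase, on the log2 scale. The 5 pyruvate dehydrogenase subunits lay between -0.07 and 0.10, and the carriers MPC1 and MPC2 at -0.06 and 0.13. ME1, the cytosolic malic enzyme, was at 72.7, 69.6 and 64.1 TPM in non-BCSCs and at 62.7, 59.1 and 60.5 TPM in BCSCs. Its groups did not overlap, and its log2 difference of -0.18 ± 0.056 (SE) had a limma adjusted p of 0.112. GLUD1, which feeds glutamate carbon into the cycle, was at 103, 101 and 95.4 TPM in non-BCSCs and at 110, 105 and 116 TPM in BCSCs (log2 0.14 ± 0.052, SE, limma adjusted p = 0.156). Both passed the threshold by edgeR's quasi-likelihood test on the recovered reads, where GLUD1 had an adjusted p of 0.0189 and ME1 of 0.0440. In all, the groups did not overlap for 9 of 33 members (27.3%), against 29% of all genes tested.

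The genes of the same pathway outside the 33 members were read as a second list of 32, of which 26 passed the minimum mean of 1 TPM in Hs578T. Lactate dehydrogenase A (LDHA), which converts pyruvate to lactate in the cytosol, was the 1 gene of that list that changed in this line. It was at 2351, 2293 and 2226 TPM in non-BCSCs and at 1688, 1657 and 1791 TPM in BCSCs (log2 -0.42 ± 0.049, SE, limma adjusted p = 0.00322). It is named here because the count was small, after its values were seen. Genes of the cell cycle differed with the sort in both lines: of 15 genes of the G2 and M phases of the cell cycle, 14 rose in Hs578T BCSCs and 13 in HCC70 BCSCs, and none fell. Over all genes tested, 386 of 13324 rose in Hs578T and 301 of 13218 in HCC70. KIF20A, CCNB1, HMMR and NEK2 of the list were picked by the authors from these same libraries for higher levels in BCSCs. Their rise is therefore no separate result. The summed level of the 15 genes was 2199 to 2325 TPM in Hs578T non-BCSCs and 2841 to 3046 TPM in BCSCs, and 1588 to 1664 TPM and 2427 to 2599 TPM in HCC70. KIF20A itself, 1 of the 15, was at 214 to 218 TPM and 271 to 323 TPM in the 2 fractions of Hs578T. Whether this difference in cell cycle genes has a part in the PDK1 difference was not tested.

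**Figure D1:**
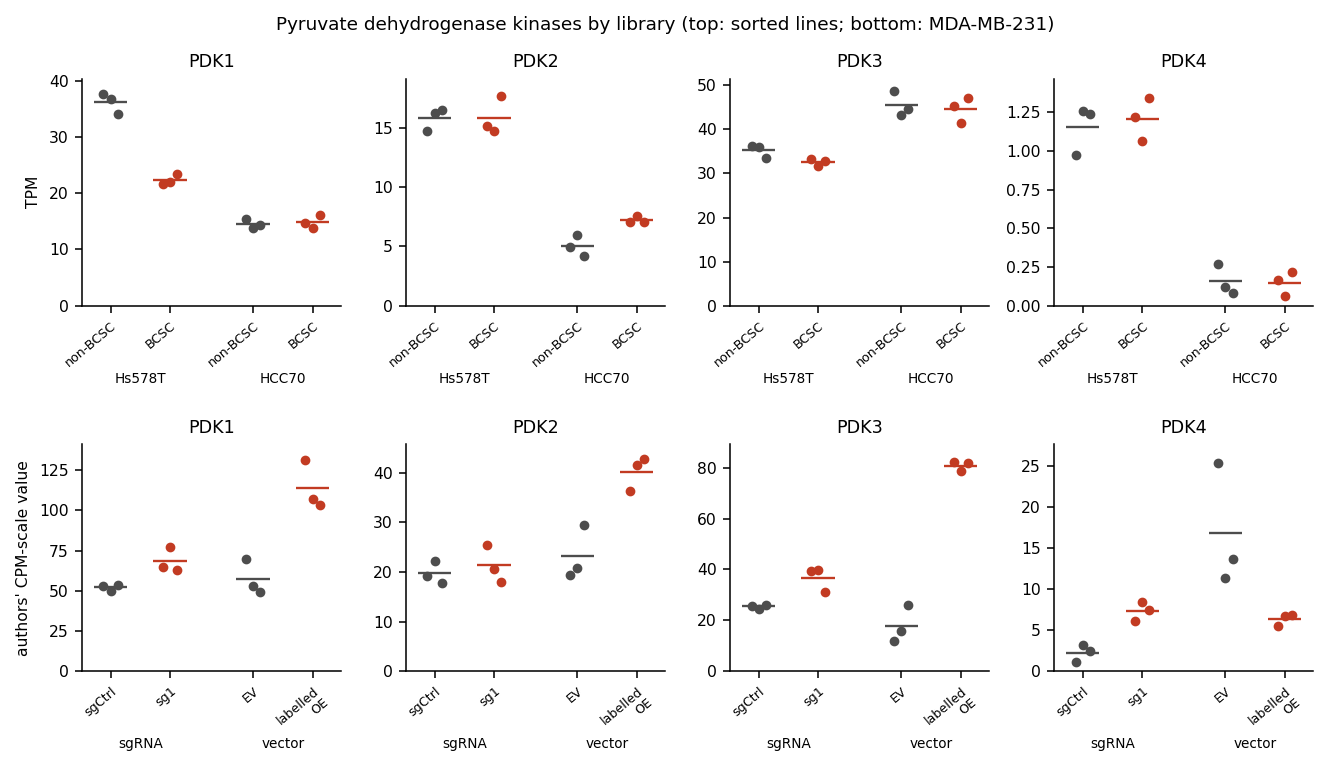
Level of PDK1, PDK2, PDK3 and PDK4 in every library. The top row gives TPM in the sorted fractions of Hs578T and HCC70, and the bottom row gives the authors' CPM-scale value in MDA-MB-231 with sgCtrl or sg1 and with EV or the vector labelled OE. Points are libraries, lines are means of 3, and every axis starts at 0. PDK1 lies at 34.1 TPM or more in Hs578T non-BCSCs and at 23.4 TPM or less in BCSCs, while the 2 fractions of HCC70 overlap.

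In HCC70, 0 of the 32 members tested passed the limma test, against 2.83% of the 13218 genes tested. DESeq2 on the recovered reads called 2 members, MPC2 and PDK2, and edgeR called 0. At an unadjusted p under 0.05, 8 members (25%) stood out, 7 of them higher in BCSCs, against 23.7% of all genes. The groups did not overlap for 11 of 32 members (34.4%), against 30.9% of all genes. The median log2 fold change was 0.04 over the members and 0.02 over all genes. The share of members that stood out was thus close to that of genes at large in each of these counts.

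The kinase with the largest value in HCC70 was PDK2. It was at 4.92, 5.97 and 4.15 TPM in non-BCSCs and at 7.07, 7.57 and 7.02 TPM in BCSCs. The BCSC libraries all lay above the non-BCSC libraries, and the log2 difference was 0.46 ± 0.12 (SE, limma adjusted p = 0.0713). DESeq2 gave PDK2 an adjusted p of 0.0179. PDK2 exons overlap those of SAMD14 on the opposite strand over 2113 of 5471 exon bases, and SAMD14 was at 0.0602 TPM or less in every HCC70 library. PDK1 was at 15.5, 13.8 and 14.4 TPM in non-BCSCs and at 14.7, 13.8 and 16.1 TPM in BCSCs, with overlapping groups (log2 0.03 ± 0.078, SE, limma adjusted p = 0.845). PDK3 was at 48.6, 43.2 and 44.6 TPM in non-BCSCs and at 45.3, 41.4 and 47.2 TPM in BCSCs, again with overlapping groups. PDK4 lay under the minimum mean of 1 TPM and was not tested: its levels were 0.268, 0.120 and 0.0842 TPM in non-BCSCs and 0.163, 0.0612 and 0.221 TPM in BCSCs, from at most 10 reads in a library.

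Several cycle enzymes of HCC70 had higher values in BCSCs without passing the test. CS was at 99.8, 109 and 104 TPM in non-BCSCs and at 117, 118 and 124 TPM in BCSCs, with no overlap (log2 0.20 ± 0.056, SE, limma adjusted p = 0.0901). OGDH, the E1 subunit of the oxoglutarate dehydrogenase complex, was at 60.0, 76.2 and 75.1 TPM in non-BCSCs and at 79.2, 85.7 and 83.5 TPM in BCSCs (log2 0.24 ± 0.094, SE, limma adjusted p = 0.175). Non-BCSC replicate 1 was the low library, and without it the log2 value was 0.13. Of the 15 cycle enzymes, 12 had a positive log2 fold change and 7 had BCSC libraries that all lay above the non-BCSC libraries. Over all genes tested, 7403 of 13218 had a positive value and the groups did not overlap in either direction for 30.9%. The median over the cycle enzymes was 0.05, and 0.02 after rescaling. SUCLA2, the ATP-forming succinyl-CoA ligase subunit, was the lowest, at 103, 92.7 and 96.6 TPM in non-BCSCs and at 84.3, 83.8 and 94.6 TPM in BCSCs, and its groups overlapped.

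MPC2 had the lowest log2 value of the members in HCC70 and did not pass the test. It was at 96.4, 74.1 and 75.1 TPM in non-BCSCs and at 67.8, 64.8 and 73.0 TPM in BCSCs (log2 -0.24 ± 0.10, SE, limma adjusted p = 0.205). Non-BCSC replicate 1 was again the library farthest from the others, and without it the log2 value was -0.12. ME1 was at 42.2, 35.7 and 39.0 TPM in non-BCSCs and averaged 35.7 ± 2.88 TPM (SD, n = 3 libraries) in BCSCs, with overlap. On the second pathway list, 2 of 26 tested genes rose in HCC70 BCSCs: GOT1, the cytosolic aspartate aminotransferase, at 38.1 to 45.2 TPM against 56.2 to 60.6 TPM, and PCK2, mitochondrial phosphoenolpyruvate carboxykinase, at 85.4 to 105 TPM against 123 to 134 TPM. Their limma adjusted p-values were 0.0242 and 0.0478 and both calls were lost after rescaling by the median of ratios (adjusted p = 0.0567 and 0.0891). Both genes were named after their values were seen.

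**Figure D2:**
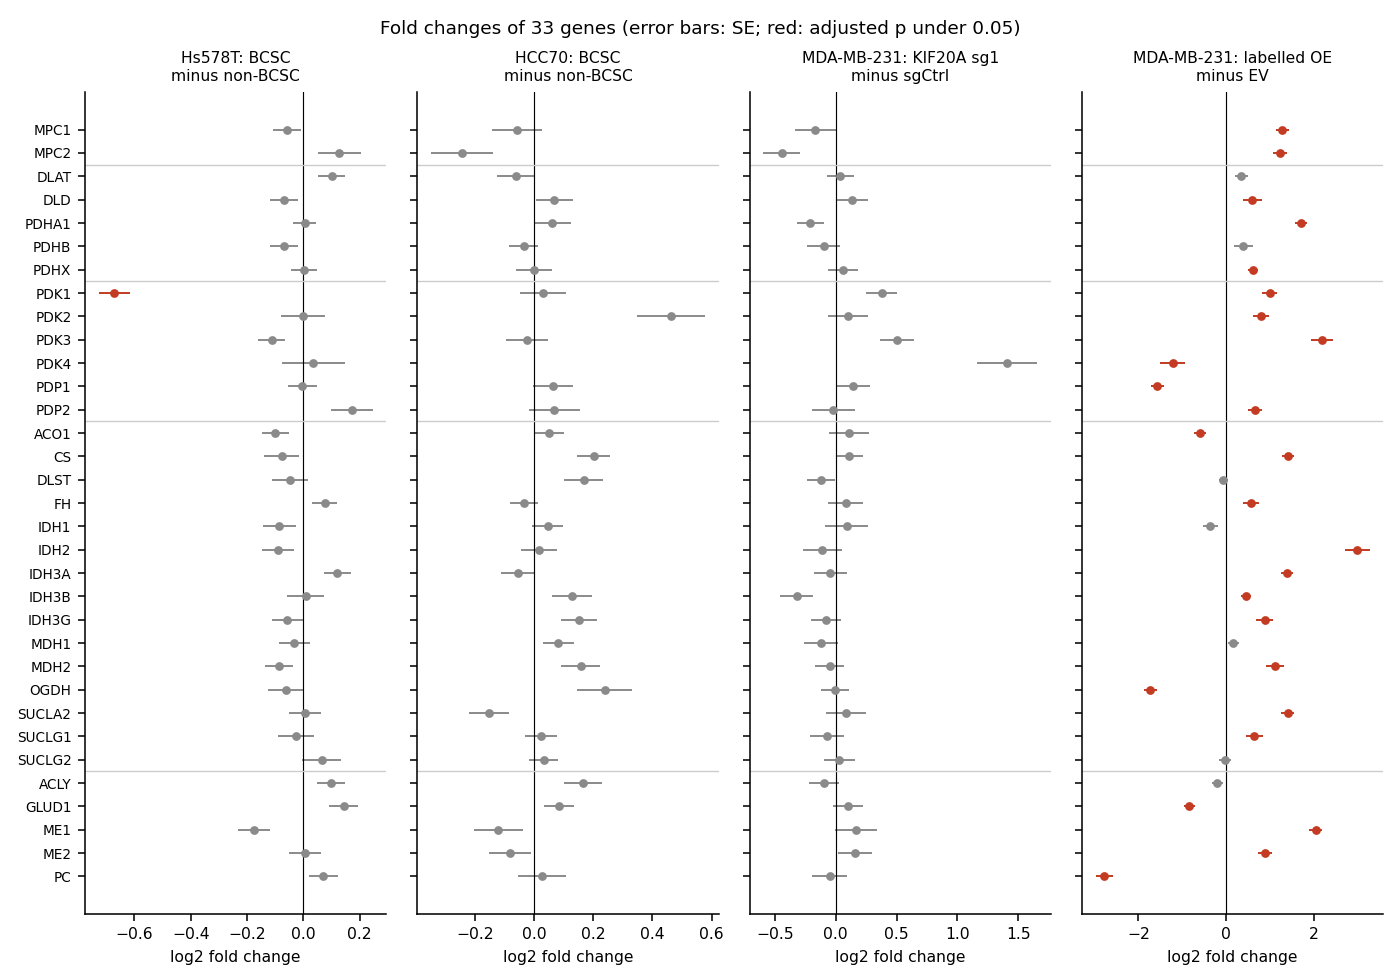
Fold changes of the 33 members in the 4 comparisons, in role order from top to bottom (pyruvate carriers, pyruvate dehydrogenase subunits, kinases and phosphatases, cycle enzymes, side entries and exits). Points are log2 fold changes on the log2(value + 1) scale, bars are SE, red marks an adjusted p under 0.05, and each panel has its own horizontal scale. PDK1 at -0.67 is the 1 red point in Hs578T, and 26 points are red in the comparison with the libraries labelled OE.

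The difference between the 2 lines in the BCSC effect was tested directly. Of 32 members tested, PDK1 alone passed: its effect in HCC70 exceeded that in Hs578T by 0.70 ± 0.094 (log2, SE, limma interaction adjusted p = 0.00210). Members called made up 3.12% of those tested, against 7.11% of the 11668 genes tested. PDK1 fell by 0.67 on the log2 scale in Hs578T BCSCs and differed by 0.03 in HCC70. PDK2 had the next largest positive difference, at 0.46 ± 0.14 (log2, SE, limma adjusted p = 0.0729), followed by OGDH at 0.30 and CS at 0.28. MPC2 had the largest negative one, at -0.37 ± 0.14 (log2, SE, limma adjusted p = 0.118). None of these 4 passed the test with all libraries. Line, medium and batch cannot be told apart in this contrast.

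Levels of the members also differed between the sorted lines. The tables of the 2 lines were normalized separately, and RMRP and RPPH1, the RNA parts of the RNases MRP and P, took 11.1% to 14.0% of all TPM in Hs578T and 9.38% to 13.1% in HCC70, so the following is a description without a test. For 16 members, all 6 HCC70 libraries lay above all 6 Hs578T libraries, for 11 they lay below, and for 6 the ranges overlapped. IDH1, the cytosolic NADP-dependent isocitrate dehydrogenase, was at 113 to 131 TPM in Hs578T and at 677 to 712 TPM in HCC70. IDH2, its mitochondrial counterpart, was at 51.4 to 60.7 TPM in Hs578T and at 273 to 309 TPM in HCC70. By their means they were 5.67 and 5.00 times as high in HCC70. The third isocitrate dehydrogenase, the NAD-dependent enzyme, went the other way in the 2 subunits IDH3A (54.2 ± 3.07 TPM in Hs578T and 36.3 ± 1.48 TPM in HCC70, SD, n = 6 libraries) and IDH3B (93.2 to 109 TPM and 57.7 to 70.6 TPM), while IDH3G overlapped.

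The other role groups were also split. Among the pyruvate dehydrogenase subunits, PDHB was at 136 to 153 TPM in Hs578T and at 48.2 to 51.0 TPM in HCC70, and PDHX at 57.3 to 61.9 TPM and 22.5 to 24.8 TPM, whereas PDHA1, DLAT and DLD were all higher in HCC70. MDH1, the cytosolic malate dehydrogenase, was at 302 to 338 TPM in Hs578T and at 205 to 231 TPM in HCC70. MDH2, the mitochondrial enzyme, was at 167 to 191 TPM in Hs578T and at 354 to 435 TPM in HCC70. ACLY, which makes cytosolic acetyl-CoA from citrate, was at 232 to 268 TPM and 115 to 143 TPM. Both succinyl-CoA ligase partners of SUCLG1 were higher in HCC70, SUCLG2 by 1.63 times and SUCLA2 by 1.63 times, and SUCLG1 overlapped. The carriers MPC1 and MPC2 and the phosphatases PDP1 and PDP2 were higher in HCC70 as well. PC, which makes oxaloacetate from pyruvate, was at 12.7 to 14.3 TPM in Hs578T and at 21.6 to 26.2 TPM in HCC70. ME1 and ME2 were lower there, by their means 1.73 and 1.33 times.

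**Figure D3:**
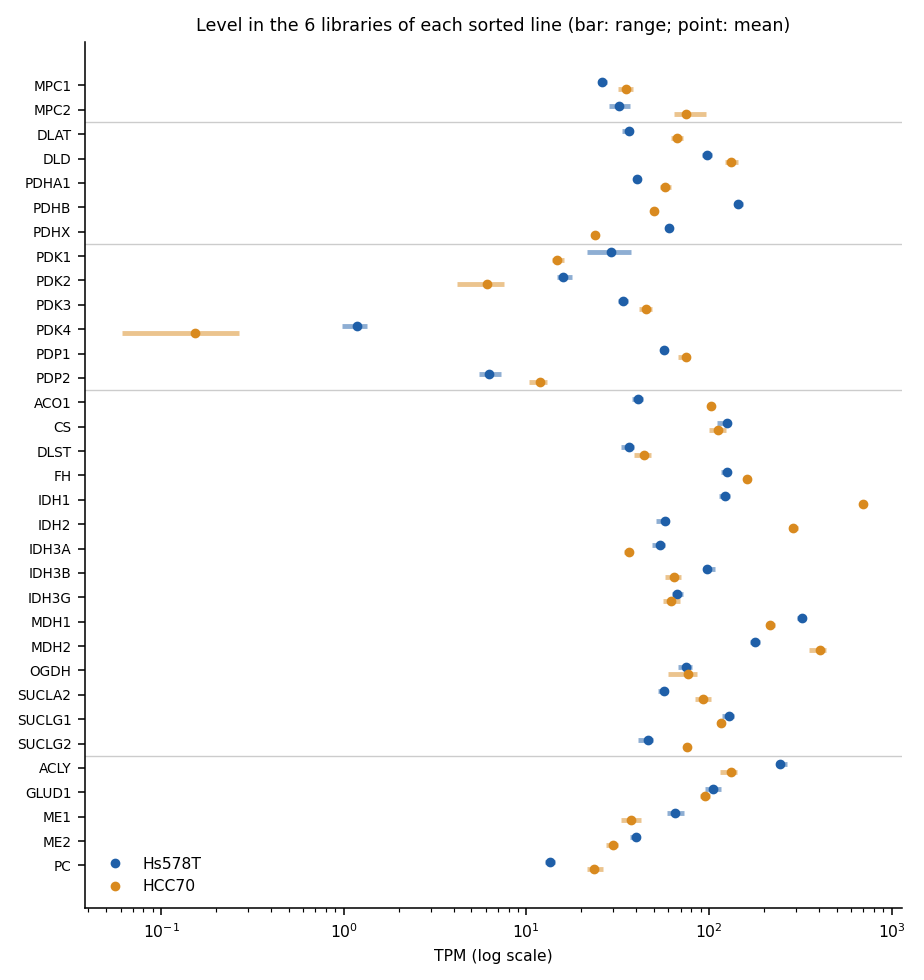
TPM of the 33 members in Hs578T (blue) and HCC70 (orange) on a log axis. Points are means over the 6 libraries of a line and bars run from the lowest to the highest library. IDH1 and IDH2 lie far to the right in HCC70, PDHB and PDHX lie to the right in Hs578T, and PDK4 is the lowest member in both lines.

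In MDA-MB-231 cells with sg1, 0 of 33 members and 0 of 12852 genes (0%) passed the limma test, while DESeq2 on the recovered reads called 11 genes and edgeR 0. KIF20A RNA itself missed the threshold in this comparison, as given above. The paper reports depletion of KIF20A protein by its sgRNAs from immunoblots of MDA-MB-231 cells, and RNA values do not measure protein. At an unadjusted p under 0.05, 5 members (15.2%) stood out, against 7% of all genes tested (899). The groups did not overlap for 6 of 33 members (18.2%), against 13% of all genes. The median log2 fold change was 0.03 over the members and 0.00 over all genes.

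Of these 5, 3 were kinases with higher values in the sg1 libraries. PDK4 was at 1.10, 3.16 and 2.49 in the sgCtrl libraries and at 6.10, 8.47 and 7.42 in the sg1 libraries, in the same CPM-like values. Every sg1 library lay above every sgCtrl library, and the log2 difference was 1.41 ± 0.25 (SE, limma adjusted p = 0.690). Counts were moderate, with at most 420 reads in a library. On the recovered reads, DESeq2 gave PDK4 an adjusted p of 0.00256 and edgeR's quasi-likelihood test 0.652. PDK3 was at 25.8, 24.4 and 26.1 in sgCtrl and at 39.3, 39.8 and 31.2 in sg1 (log2 0.51 ± 0.14, SE, limma adjusted p = 0.690). PDK1 was at 53.2, 49.95 and 53.4 in sgCtrl and at 64.6, 77.4 and 63.0 in sg1 (log2 0.38 ± 0.13, SE, limma adjusted p = 0.690). Neither PDK3 nor PDK1 overlapped between groups. PDK2 was at 19.2, 22.2 and 17.7 in sgCtrl and at 25.5, 20.6 and 17.9 in sg1, with overlap. The phosphatases PDP1 and PDP2 overlapped too, with log2 differences of 0.14 and -0.02.

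The other 2 members that stood out before adjustment had lower values with sg1. MPC2 was at 31.5, 35.5 and 31.7 in sgCtrl and at 25.4, 27.0 and 19.8 in sg1 (log2 -0.44 ± 0.15, SE, limma adjusted p = 0.690). Its partner MPC1 was at 17.7, 17.6 and 25.7 in sgCtrl and at 17.7, 17.6 and 17.7 in sg1, so that sgCtrl replicate 3 alone lay above the rest. IDH3B, a regulatory subunit of the NAD-dependent isocitrate dehydrogenase, was at 71.4, 65.5 and 53.8 in sgCtrl and at 52.1, 50.6 and 48.5 in sg1 (log2 -0.32 ± 0.13, SE, limma adjusted p = 0.690). PDHA1, the catalytic E1 subunit that the kinases phosphorylate, was at 111, 115 and 107 in sgCtrl and at 100, 95.5 and 91.5 in sg1, without overlap (log2 -0.21 ± 0.11, SE, limma adjusted p = 0.700). The 15 cycle enzymes lay between -0.32 and 0.11 on the log2 scale. sgCtrl replicate 3 stood apart in several of them: ACO1 was at 226 and 230 in the other sgCtrl libraries and at 300 in that one, and FH at 93.3 and 102.3 against 134. Without it, 144 genes passed the limma test but still 0 members, and the lowest adjusted p of a member was 0.0511.

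In the libraries labelled OE, 26 of 33 members differed from EV, 20 higher and 6 lower. Most genes of the table did so: 69.7% of 15265 genes tested passed, 46.2% higher and 23.4% lower, and the groups did not overlap for 28 members (84.8%) and for 74.1% of all genes. The median log2 fold change was 0.62 over the members and 0.37 over all genes tested. After rescaling by the median of ratios it was 0.26 over the members and 0.04 over all genes. Of the 33 members, 22 then passed, 12 higher and 10 lower. Of all 15265 genes tested, 10186 then passed, 5218 higher and 4968 lower, so the share of members was close to that of all genes. Since the libraries labelled OE held the markers of their line at far lower levels than EV, a vector effect and a difference of cells or libraries cannot be told apart.

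IDH2 had the largest positive value in this comparison, at 11.9, 20.0 and 25.6 CPM in EV and at 160, 119 and 185 CPM in the libraries labelled OE (log2 2.99 ± 0.28, SE, limma adjusted p = 2.90e-05). PDK3 was at 11.8, 15.8 and 26.1 CPM in EV and at 82.3, 78.5 and 81.7 CPM in the libraries labelled OE (log2 2.18 ± 0.25, SE, limma adjusted p = 0.000102). ME1 was at 7.95, 9.71 and 8.88 CPM and at 39.8, 35.9 and 42.5 CPM in the 2 groups, a log2 difference of 2.04. PDHA1, both pyruvate carriers, CS, IDH3A, SUCLA2 and MDH2 were higher by between 1.12 and 1.70 on the log2 scale. All of these stayed past the threshold, and higher, after rescaling.

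The largest negative value was that of PC, at 229, 256 and 158 CPM in EV and at 33.6, 25.9 and 30.3 CPM in the libraries labelled OE (log2 -2.78 ± 0.19, SE, limma adjusted p = 5.85e-06). OGDH was at 264, 300 and 287 CPM and at 68.3, 90.4 and 98.2 CPM (log2 -1.73). PDP1 was at 105, 119 and 97.2 CPM and at 37.8, 29.9 and 38.9 CPM (log2 -1.57). PDP2, the other phosphatase, had the opposite sign (log2 0.65, limma adjusted p = 0.00702) and lost its call after rescaling (adjusted p = 0.161). PDK4 was the kinase on the other side, at 25.4, 11.4 and 13.7 CPM in EV and at 5.45, 6.67 and 6.80 CPM in the libraries labelled OE (log2 -1.21 ± 0.29, SE, limma adjusted p = 0.00543). PDK1 was at 69.8, 52.7 and 49.1 CPM in EV and at 132, 107 and 103 CPM in the other group (log2 0.99). PDK2 was at 19.4, 20.7 and 29.6 CPM and at 36.4, 41.6 and 42.8 CPM (log2 0.79), and lost its call after rescaling (adjusted p = 0.0531). The opposite-strand gene SAMD14 was at 0.0476 to 0.118 CPM in EV and at 3.52 to 4.55 CPM in the libraries labelled OE, and its part in the PDK2 count was not tested. GLUD1 (log2 -0.84) and ACO1 (log2 -0.60) complete the 6 lower members.

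The call of several more members depended on the scaling. DLD, FH, IDH3B, IDH3G, PDHX, PDP2 and SUCLG1 passed as deposited, with log2 values between 0.45 and 0.88, and did not pass after rescaling. ACLY, DLST, IDH1 and SUCLG2 passed only after rescaling, on the lower side, with log2 values between -0.72 and -0.39. MDH1 went from 0.16 to -0.20 and DLAT from 0.35 to -0.02, passing in neither. PDHB was at 79.6, 81.7 and 87.1 CPM in EV and at 91.7, 161 and 87.9 CPM in the libraries labelled OE, where replicate 2 was the highest, and did not pass in either scaling. ME2, at a log2 value of 0.89 as deposited and 0.53 after rescaling, passed in both.

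**Figure D4:**
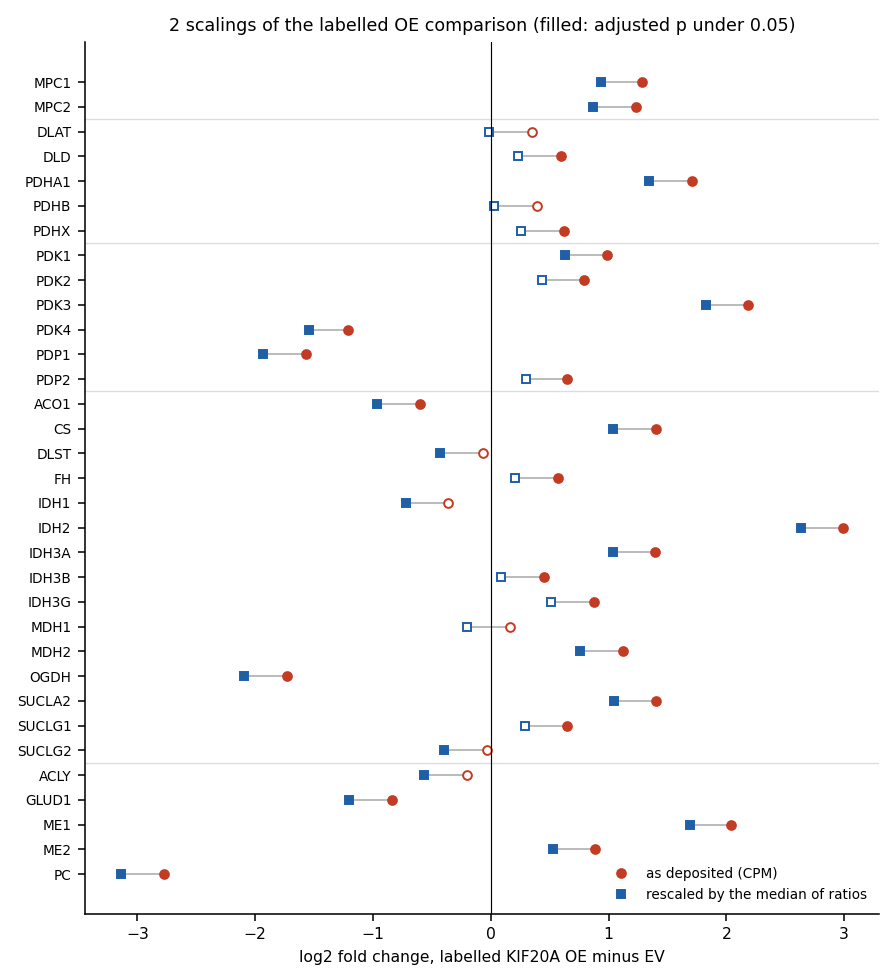
Log2 fold changes of the 33 members between the libraries labelled OE and EV, from CPM as deposited (red circles) and from CPM divided by median-of-ratios factors (blue squares), in role order. Filled symbols have an adjusted p under 0.05. Every member moves left by about the same amount, the median of the members goes from 0.62 to 0.26, and MDH1 and DLAT cross 0.

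The make-up of the kinase family was compared per length, since TPM is divided by gene length and the MDA-MB-231 values were divided by the relative lengths behind the authors' TPM. In Hs578T non-BCSCs, PDK1 made up 40.9% ± 1.02 (SD, n = 3 libraries) of the 4 kinases and PDK3 39.9% ± 0.583. In Hs578T BCSCs, PDK1 made up 31.0% ± 0.712 and PDK3 45.3% ± 1.58, and the summed level of the 4 kinases was 71.9 ± 3.03 TPM against 88.4 ± 2.54 TPM in non-BCSCs. In HCC70, PDK3 made up 69.8% ± 1.09 in non-BCSCs and 66.7% ± 0.739 in BCSCs, and PDK1 22.3% and 22.2%. In MDA-MB-231, PDK1 led with 57.9% ± 3.17 in sgCtrl, 57.6% ± 3.23 in sg1 and 49.7% ± 5.88 in EV, and it made up 55.8% ± 4.61 in the libraries labelled OE. PDK4 made up 3.04% ± 1.38 in sgCtrl and 7.59% ± 1.19 in sg1, and 17.4% ± 5.44 in EV and 3.81% ± 0.625 in the libraries labelled OE. The 2 MDA-MB-231 control groups thus held different PDK4 shares, in separate tables and batches. Per length, the order PDK1 over PDK2 over PDK3 held in the means of sgCtrl, sg1 and EV and of the libraries labelled OE. In both fractions of both sorted lines, PDK3 was over PDK2. The place of PDK2 over PDK3 in MDA-MB-231 depended on the lengths. Before that division, PDK3 was above PDK2 in every sgCtrl and sg1 library and every library labelled OE, and below it in EV. The lengths came from the Hs578T values, and whether they hold for the MDA-MB-231 tables was not tested. PDK1 and PDK3 in Hs578T non-BCSCs lay within the sum of their SDs of each other.

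**Figure D5:**
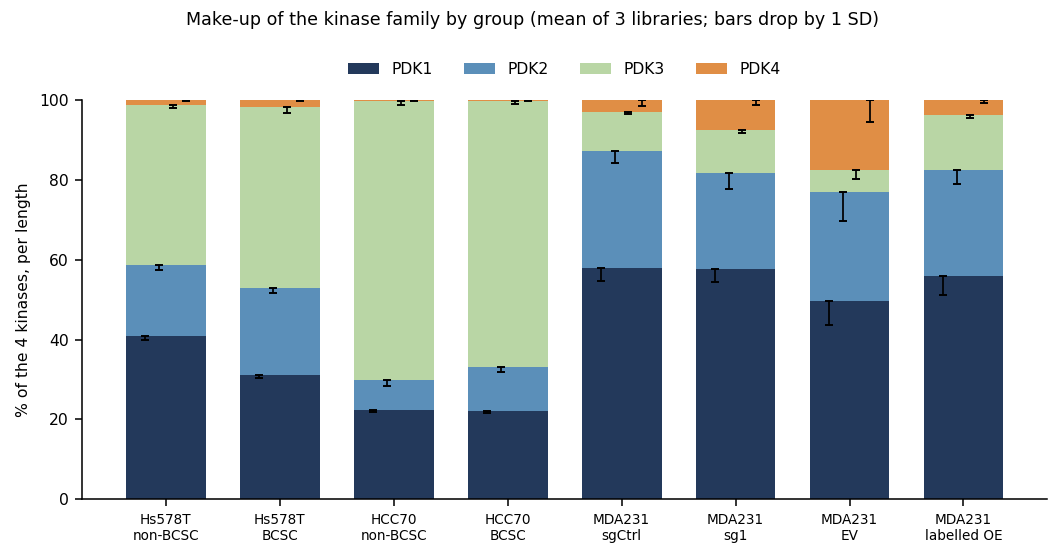
Share of each pyruvate dehydrogenase kinase in the per-length sum of the 4, in percent, as the mean of 3 libraries per group, with 1 SD drawn downward from the top of each segment. PDK3 fills most of the HCC70 bars (69.8% and 66.7%), PDK1 is the largest segment of the sgCtrl, sg1 and EV bars and of the bar labelled OE (49.7% to 57.9%), and the PDK4 segment is widest in EV (17.4%).

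Per length, the members that held most of the summed level of all 33 also differed by line. MDH1 led in Hs578T, with 12.6% ± 0.222 in non-BCSCs and 12.5% ± 0.280 in BCSCs, followed by ACLY with 9.12% ± 0.376 and 9.90% ± 0.196. IDH1 led in HCC70, with 20.2% ± 0.242 and 20.0% ± 0.233, followed by MDH2 with 11.3% ± 0.819 and 12.2% ± 0.243. MDH2 led in MDA-MB-231, with 17.5% ± 0.786 in sgCtrl, 17.1% ± 0.395 in sg1 and 11.7% ± 0.123 in EV, and it made up 18.9% ± 3.68 in the libraries labelled OE. These shares differed by less than 1 percentage point between the fractions of each sorted line. GLUD1 and PDHA1 have retrocopies (GLUD2 and PDHA2), and the exons of several members overlap genes on the opposite strand. Among them are MPC2 with DCAF6 over 575 of 2638 bases and IDH3A with ACSBG1 and CIB2 over 2646 of 6823 bases. PDK1 overlaps PDK1-AS1 in this way over 445 of 14845 bases. CS shares 220 of 6401 exon bases with another gene model on its own strand. The kit named by the authors kept strand, which does not separate genes on the same strand. How strand was set in counting is not given in the sources used here, so the levels of these members are less certain.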

How the data were processed

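The authors' methods name a stranded poly-A kit, and the submitters' processing notes name HISAT2 2.0.5, featureCounts 1.5.0-p3 and GRCh38. RMRP and RPPH1 together took 9.38% or more of TPM in every sorted library, and whether these libraries were poly-A selected was not tested. The authors deposited TPM for the sorted Hs578T and HCC70 fractions, CPM for the vector experiment, and for the sgRNA experiment a signal, reads divided by 1 factor per library (column sums 977394 to 1028621). Whole reads were recovered from all 4 tables (100% of genes), which gave the depths. The tolerance was 0.02 in the MDA-MB-231 tables. From TPM, the smallest multiplier that made all values of a gene whole gave its reads. These reads were multiplied by a further whole factor where the gene length they implied was shorter by that factor than in the other line. No row lacked a gene name, and 0 sample columns were left out. Values were tested with limma 3.58.1 (R 4.3.3) on log2(value + 1), for genes with a mean of at least 1, each comparison fitted by itself, with two-sided moderated tests and Benjamini-Hochberg adjustment over all genes tested and a threshold of 0.05. Fold changes on that scale understate changes of low genes. The difference between the sorted lines was fitted as a fraction by line interaction over the 12 sorted libraries. Alternatives were a pseudocount of 0.1, no minimum, a minimum mean of 5, rescaling by the median of ratios, a replicate block, each replicate left out, and count tests of the recovered reads (edgeR 4.0.16, DESeq2 1.42.0), which were added for the sorted lines after the data were seen. The tests were also run on simulated counts with the same spread set for every gene. The share of false calls by limma in Hs578T lay above the threshold there. That run does not give error rates for these libraries. All pairs of replicates differed by more than sampling noise (chi-square per gene at least 2.04). Members and lists were chosen with earlier results of these data known. The rule for naming covered members that passed in the sorted lines or with sg1, the 3 largest rises and falls of each comparison, the 4 kinases, and members under the minimum. Most of these are given per library, and some by means, ranges or log2 fold changes alone. ME1, GLUD1 and CS fall under this rule. Other members named beside them were named after their values were seen. Promoter windows came from RefSeq, and exon overlaps from GENCODE.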

Additional observations from a re-analysis of the deposited data

Results flagged for a closer look

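PDK1 met the rule for an effect that differs between groups. The BCSC effect in HCC70 minus that in Hs578T was 0.70 (log2, SE 0.094, limma interaction adjusted p = 0.00210). All 3 Hs578T BCSC libraries lay below all 3 non-BCSC libraries, and the HCC70 groups overlapped.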

How the results depend on the processing

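PDK1 stayed called, and lower in BCSCs, in Hs578T under all 13 alternatives, and its difference between lines stayed called under all 15. Members called in Hs578T numbered 1 as reported, 2 after rescaling by the median of ratios (GLUD1 added), 3 by edgeR and 3 by DESeq2 (GLUD1 and ME1 added), and 1 to 2 with a library left out. ME1 was added without non-BCSC replicate 3. In HCC70 they numbered 0 except 2 by DESeq2, and with sg1 0 except 1 by DESeq2 (PDK4); both stayed at 0 with any library left out. In the difference between lines they numbered 1 to 3 with a library left out: PDK2 was added without HCC70 non-BCSC replicate 2, and CS and PDK2 without Hs578T BCSC replicate 3. In the labelled OE comparison they numbered 22 to 28, with 24 to 27 when a library was left out. Over all genes, Hs578T gave 1644 calls by edgeR and 1431 by DESeq2, and 342 to 880 with a library left out. HCC70 gave 676 by edgeR, 1182 by DESeq2, 178 with no minimum, 232 after rescaling and 32 to 247 with a library left out. With sg1, DESeq2 gave 11, and 0 to 144 were called with a library left out (144 without sgCtrl replicate 3, 5 without sg1 replicate 2). The labelled OE comparison gave 8431 to 13255. The difference between lines gave 291 to 1225 with a library left out. The cause of these changes was not tested.

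Correlations between samples with the same replicate number were -0.06 to 0.05 in Hs578T, -0.07 to 0.19 in HCC70, -0.16 to -0.05 with sg1 and 0.01 to 0.06 in the labelled OE experiment. The 0.19, for replicate 2, was the highest of any pair in HCC70. Values were centred within groups of 3 libraries, so these correlations can neither establish nor exclude a pairing by number. With a replicate block, members called numbered 1 in Hs578T, 0 in HCC70, 0 with sg1, 28 in the labelled OE comparison (DLAT and IDH1 added) and 1 in the difference between lines, while all genes called numbered 128 in HCC70 and 302 in the difference between lines. Of 801 values of single members under an alternative, 740 stayed on the same side of the threshold, 30 gained a call and 31 lost one, all 31 in the labelled OE comparison. The sign differed in 20, none of them called, among them MDH1 in the labelled OE comparison. PDK4 in HCC70, with at most 10 reads in a library, could not show a difference at this depth.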
